A study of Mus musculus with 354 samples.

Results

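Tolvaptan was compared with vehicle in livers of AU8049, an inbred mouse strain of the Collaborative Cross, a panel bred from several founder strains. The arrays were chosen by their strain label, which gave 8 of the 354 arrays in the series. The 4 tolvaptan animals were 345, 346, 347 and 348, and the 4 vehicle animals were 341, 342, 343 and 344. All were males of 8 to 10 weeks that had been acclimated for about 7 days and fasted for about 18 h, and the median lobe of the liver was taken 24 h after treatment. No genetic modification or other agent is given in the labels. The dose label has no unit and is not used. AU8049 was picked from the 45 strains because of its difference between treatments, so the values, counts and calls of that difference are a description and carry no test here.

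Tolvaptan blocks the vasopressin V2 receptor, through which the kidney's collecting duct retains water. It is used in people to slow polycystic kidney disease and to raise blood sodium, and liver injury is a known adverse effect in some patients. Hepatocytes mainly carry the V1a receptor, encoded by Avpr1a. A liver under acute stress typically raises immediate early genes, growth arrest genes of the Gadd45 family and hypoxia-responsive genes.

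The tolvaptan animals were not alike. Animals 345 and 346 had expression profiles far from those of the other 6 animals, while 347 and 348 lay about as far from the vehicle animals as these lay from each other. Of 14125 genes tested, 253 were at least 2-fold apart between 345 and 346. Between animal 345 or 346 and any of the other 6 animals the count was 1812 to 2362. It was 443 between 347 and 348, 255 to 587 between animal 347 or 348 and a vehicle animal, and 155 to 461 between vehicle animals. These counts compare single arrays, so they include the error of both.

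**Figure D1:**
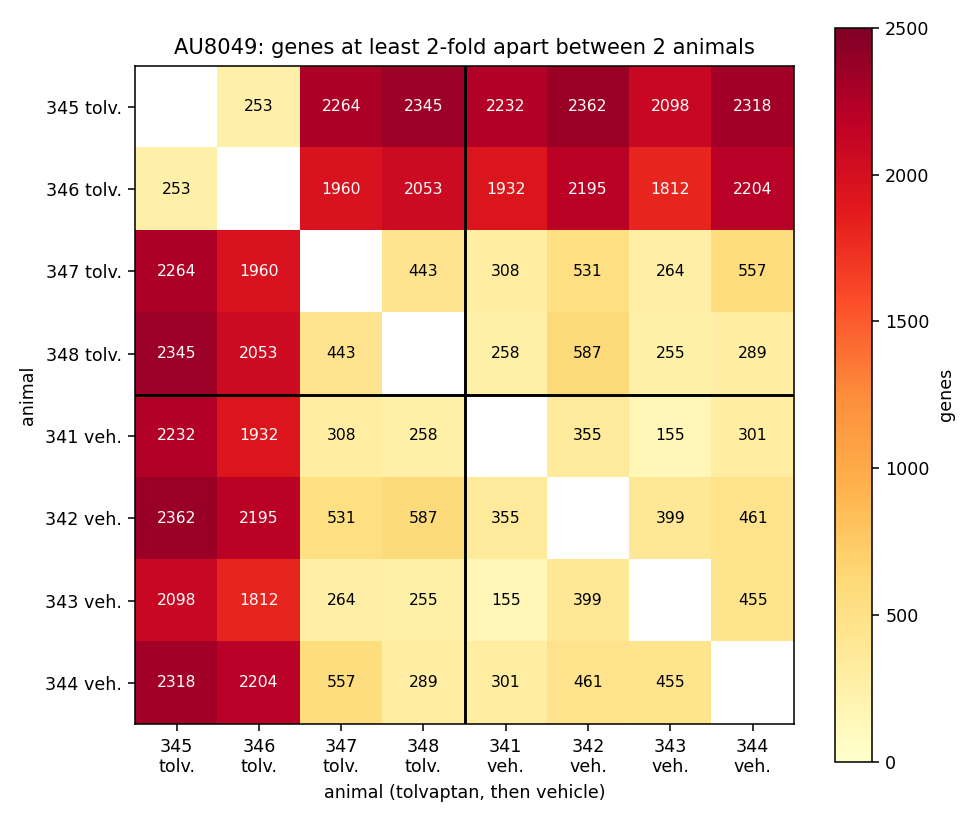
Number of genes, of 14125, at least 2-fold apart between each pair of AU8049 animals, with tolvaptan animals first on both axes and vehicle animals after them. The rows of 345 and 346 hold counts of 1812 to 2362 against the other 6 animals, and 253 against each other.

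Set against the range of the 4 vehicle animals, 1288 genes in animal 345 lay at least 2-fold outside it, 481 above and 807 below. Animal 346 had 1096 such genes, 461 above and 635 below. Animal 347 had 99 and animal 348 had 15. Each vehicle animal set against the other 3 had 7, 114, 40 and 51 (animals 341 to 344), so animals 347 and 348 lay within the counts that vehicle animals gave among themselves, although their range was taken over 3 animals rather than 4.

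In the limma fit, whose spread per gene is shared over all 45 strains, 763 genes (5.4%) were called in AU8049 at an adjusted p under 0.05. Of these, 235 (1.66%) were higher under tolvaptan and 528 (3.74%) were lower, and the median difference over all 14125 genes was -0.04 on the log2 scale. All 235 genes called higher lay above the vehicle range in 345 and in 346, against 74 in 347 and 56 in 348. Of the 528 called lower, 527 lay below the vehicle range in 345 and 528 in 346, against 229 in 347 and 221 in 348. Over all 14125 genes, animals 345 to 348 lay above the vehicle range in 3710, 3610, 2253 and 2723, and below it in 4886, 4709, 3779 and 3190. The groups did not overlap for 26 of the genes called higher and 117 of those called lower. Of all 14125 genes, 176 had the tolvaptan group wholly above the vehicle group and 517 wholly below. Over all 14125 genes the median SD was 0.28 over the tolvaptan animals and 0.21 over the vehicle animals. This tolvaptan value ranked 23, highest first, among the 85 groups of 4 animals in the series. The median SD over the tolvaptan animals was 1.09 for the genes called higher and 0.82 for those called lower, against 0.23 and 0.18 over the vehicle animals. The calls therefore rest on animals 345 and 346: 23 genes were called without 345 and 45 without 346, while 1545 were called without 347 and 1652 without 348, and 484 without vehicle animal 342.

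Array and RNA quality were compared between the animals. The spread of relative log expression (interquartile range) was 0.47, 0.43, 0.34 and 0.35 in tolvaptan animals 345 to 348, against 0.30 to 0.40 in the vehicle animals. The difference between control probe sets at the 3' and 5' ends grows as RNA degrades. For actin it was 1.47, 1.45, 1.62 and 2.04 in tolvaptan animals 345 to 348, against 1.53 to 1.96 in vehicle animals, lowest in 345 and 346. For pyruvate carboxylase it was 4.25, 4.70, 4.63 and 5.28, against 4.39 to 4.79. For the transferrin receptor it was 0.14, -0.17, 0.15 and -0.08, against -0.23 to 0.15. Pyruvate carboxylase and the transferrin receptor did not place both 345 and 346 lowest. Over 500 strain-informative probe sets the arrays correlated with the other AU8049 arrays at 0.77, 0.77, 0.86 and 0.94 (tolvaptan 345 to 348), against 0.93 to 0.96 under vehicle. None was under the limit of 0.5, below which 34 arrays of other strains fell. Animals 345, 346 and 347 and vehicle animals 341, 342 and 343 shared scan 3, and 348 and 344 shared scan 1, so the split between 346 and 347 lay within one scan.

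The 15 leading rises belonged to no single group, and Pdk4 and Gadd45b had the widest fitted differences among them. Gadd45b, which is induced by stress and slows the cell cycle, was 11.90, 11.47, 4.60 and 5.17 (log2 RMA value) in tolvaptan animals 345 to 348, against 4.20, 4.39, 5.29 and 5.25 in vehicle animals 341 to 344. Animals 345 and 346 stood far above the other 6, and 347 and 348 lay inside the vehicle range. Relative to the vehicle mean, this was 138-fold higher in 345 and 103-fold in 346. Its relative Gadd45a was 9.94, 8.77, 5.11 and 5.25 in tolvaptan animals, against 6.16, 5.22, 3.92 and 4.28 in vehicle animals, the same pattern at a smaller size. The fitted difference over the 4 animals of each group was 3.50 ± 0.78 (SE) for Gadd45b and 2.37 for Gadd45a, and the groups overlapped for both.

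Hilpda, a lipid droplet protein induced by hypoxia and fatty acids, was 10.46, 9.67, 4.86 and 4.41 in tolvaptan animals, against 4.46, 4.25, 4.75 and 4.47 in vehicle animals. Klf6, an immediate early transcription factor, was 9.05, 7.78, 3.97 and 4.24 in tolvaptan animals, against 4.34, 3.20, 4.21 and 4.27 in vehicle animals. Both were high in 345 and 346 and at or close to the vehicle range in 347 and 348. The other 2 probe sets of Klf6 had the same direction, with 7.13 and 5.91 and with 7.03 and 6.39 in 345 and 346, against vehicle values of 2.40 to 3.55 and 2.01 to 2.28. Atf3, a stress-induced transcription factor, had 7.60 and 6.68 in 345 and 346, and 3.49 and 3.24 in 347 and 348, against 3.17 to 3.73 in vehicle animals.

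Promoters of 3 leading rises are shown because they hold letters that stress-responsive transcription factors can bind. Each window runs from 250 bases before to 50 bases after the start of the gene (RefSeq, GRCm38.p6, plus strand, 5' to 3'). Capitals mark ACGTG on either strand, the core of the hypoxia response element, and TGANTCA, the AP-1 letters, with N for any base. CACGTG holds ACGTG on both strands in overlapping positions. The windows are Gadd45b at chr10:80929841-80930140, Hilpda at chr6:29272376-29272675 (the downstream of its listed starts) and Klf6 at chr13:5861239-5861538.
Gadd45b: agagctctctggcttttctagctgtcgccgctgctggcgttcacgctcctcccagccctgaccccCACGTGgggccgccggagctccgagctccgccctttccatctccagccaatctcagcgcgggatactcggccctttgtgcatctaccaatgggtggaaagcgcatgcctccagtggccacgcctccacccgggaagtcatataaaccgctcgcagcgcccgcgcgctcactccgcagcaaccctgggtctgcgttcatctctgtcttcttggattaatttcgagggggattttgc
Hilpda: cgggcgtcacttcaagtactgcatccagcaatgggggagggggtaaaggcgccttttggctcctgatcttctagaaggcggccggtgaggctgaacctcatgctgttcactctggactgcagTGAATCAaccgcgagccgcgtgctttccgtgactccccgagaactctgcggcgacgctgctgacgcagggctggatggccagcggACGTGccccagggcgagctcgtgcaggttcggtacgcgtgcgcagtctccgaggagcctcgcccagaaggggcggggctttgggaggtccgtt
Klf6: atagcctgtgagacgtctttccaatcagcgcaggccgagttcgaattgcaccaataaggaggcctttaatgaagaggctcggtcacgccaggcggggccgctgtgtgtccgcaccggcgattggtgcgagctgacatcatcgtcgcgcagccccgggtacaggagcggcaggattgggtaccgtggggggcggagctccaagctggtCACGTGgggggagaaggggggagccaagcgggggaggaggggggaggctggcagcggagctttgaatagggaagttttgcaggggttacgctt

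Of the 15 leading rises, 13 had a window. ACGTG was found in 5 of the 13 (38.5%), in 3 of 13 leading falls (23.1%) and in 27.3% of the 11299 tested genes with a window. The window of Ppp1r3c, a leading fall, held 3 matches to ACGTG over both strands. TGANTCA was found in 2 of 13 rises (15.4%), in 1 of 13 falls and in 7.11% of tested genes. TGACGTCA, the cAMP response letters, were found in 1 of 13 rises (7.69%), in 0 of 13 falls and in 3.05% of tested genes. At these numbers a single gene shifts a share by several percentage points, and a match is not a binding site.

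The other leading rises included Sox9, a transcription factor of bile duct and progenitor cells, with 8.33, 7.47, 2.79 and 3.12 in tolvaptan animals against 2.59, 2.80, 3.02 and 2.64 in vehicle animals. A second Sox9 probe set gave 8.35 and 7.35 in 345 and 346, against 2.20 to 2.63 in vehicle animals. Other bile duct markers did not accompany it. Krt19 had 1.89 to 2.52 over all 8 animals, Krt7 2.15 to 2.73 and Epcam 2.70 to 3.61, near or below the typical array median of 2.89, except for Epcam in 345. Of 13 bile duct and progenitor markers tested, Sox9 was the 1 called, and it was the 1 that lay at least 2-fold above the vehicle range in 345 and in 346. Over all 14125 genes, 1.66% were called higher, and 481 in 345 and 461 in 346 lay at least 2-fold above that range.

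Htra1, a secreted serine protease, was 7.90, 8.05, 2.86 and 3.30 in tolvaptan animals, against 2.86, 3.43, 3.03 and 3.01 in vehicle animals. Grb10, an adaptor that dampens insulin receptor signalling, had 9.73 and 9.15 in 345 and 346, and 4.73 and 4.59 in 347 and 348, against 4.66 to 4.75 in vehicle animals. Retreg1, a receptor for autophagy of the endoplasmic reticulum, had 11.36 and 11.23 in 345 and 346, 8.37 in 347 and 7.15 in 348, against 6.78 to 7.48 in vehicle animals. Here 347 also stood above the vehicle range. Thbd, the thrombin receptor thrombomodulin of endothelium, had 7.28 and 7.11 in 345 and 346, and 3.12 and 2.69 in 347 and 348, against 2.92 to 3.47 in vehicle animals. The rest of the 15 were Kcnk1 (a potassium channel), Crybb3 (a crystallin), Ifrd1 (a transcriptional co-regulator), Sgk1 and Pdk4, and their fitted differences lay between 1.80 and 3.60.

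**Figure D2:**
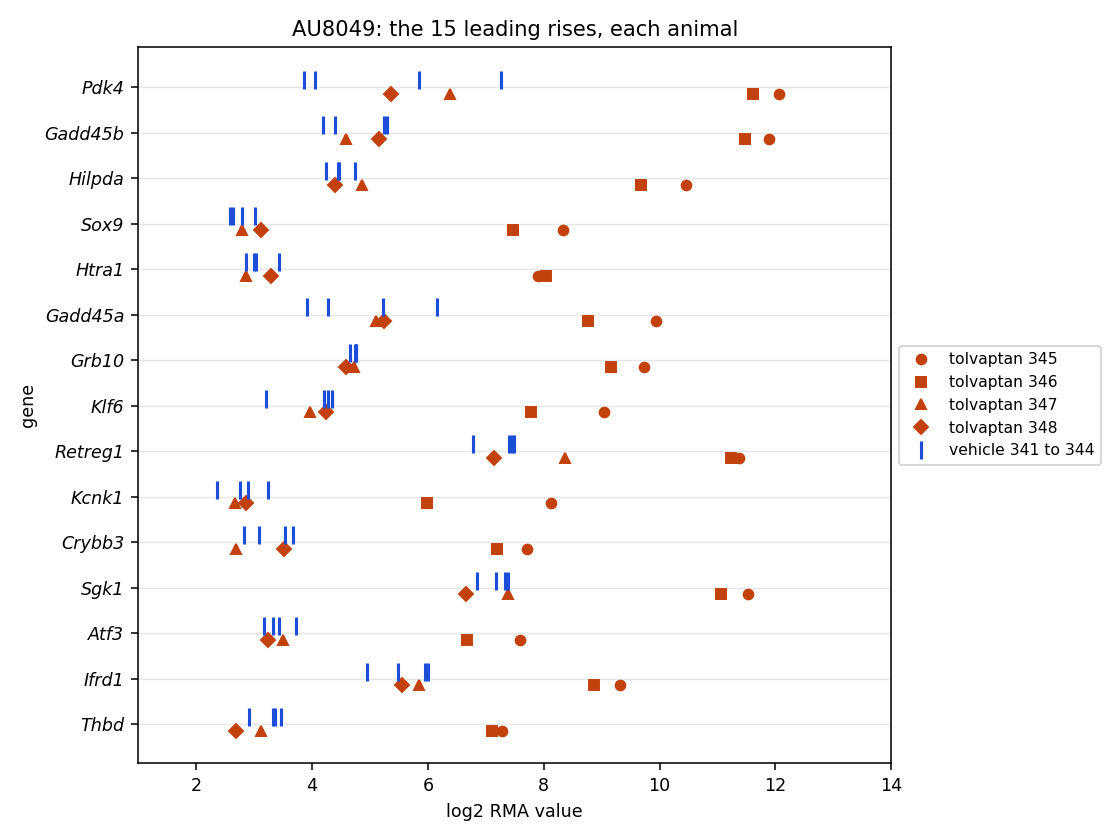
Log2 RMA values of the 15 leading rises in AU8049, with each tolvaptan animal as its own orange symbol and the 4 vehicle animals as blue bars. Animals 345 and 346 stand to the right of the vehicle animals for each gene shown, and 347 and 348 lie among or close to them.

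Genes of the fasting response did not all move one way. Of 19 fasting and PPAR-alpha targets tested, Pdk4 was the 1 called higher, against 1.66% of all genes, and Cyp4a10 and Slc25a20, a mitochondrial carnitine carrier, were the 2 called lower, against 3.74%. The median difference of the list was -0.36, against -0.04 over all genes, and 3 of the 19 had a positive difference. At least 2-fold above the vehicle range were 1 member in 345 and 2 in 346, and 3 and 4 lay at least 2-fold below it. Vnn1, a pantetheinase induced by PPAR-alpha, had 5.42 and 5.84 in 345 and 346, and 10.40 and 9.99 in 347 and 348, against 9.44 to 10.44 in vehicle animals, and was not called. Pdk4, a kinase that shuts down pyruvate oxidation in fasting, was 12.06, 11.62, 6.39 and 5.36 in tolvaptan animals, against 3.86, 5.85, 7.27 and 4.05 in vehicle animals. Animals 345 and 346 stood above the vehicle range, which was itself wide, and the fitted difference was not called without 345, without 346 or without vehicle animal 341. Cdkn1a, the cell cycle inhibitor p21, was 11.68, 11.52, 7.74 and 5.20 in tolvaptan animals, against 4.85, 7.36, 8.38 and 4.93 in vehicle animals, and was not called. The clock gene Dbp was 5.97, 4.53, 7.56 and 8.83 in tolvaptan animals, against 9.61, 7.88, 6.02 and 9.05 in vehicle animals, and Arntl, which peaks in the opposite phase, was 6.52, 6.80, 5.24 and 3.62, against 2.94, 5.16, 5.46 and 3.09. Vehicle animals 342 and 343 had lower Dbp and higher Arntl, Pdk4 and Cdkn1a than vehicle animals 341 and 344. So did all 4 tolvaptan animals, 348 by the least. The part of the clock phase in these values was not tested.

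Of 14 glucocorticoid targets tested, 2 were called higher and 1 lower, against 1.66% and 3.74% of all genes, with a median difference of 1.06 against -0.04 over all genes. The mean level of the list was 10.71, 10.91, 8.79 and 8.19 in tolvaptan animals 345 to 348, against 8.55 to 8.93 in vehicle animals. At least 2-fold above the vehicle range were 9 members in 345, 8 in 346 and 0 in 347 and in 348, where all 14125 genes gave 481, 461, 70 and 7. At least 2-fold below it were 1 member in 345, 0 in 346, 0 in 347 and 1 in 348. Sgk1, a kinase of salt transport and stress, had 11.52 and 11.06 in 345 and 346, and 7.39 and 6.67 in 347 and 348, against 6.85 to 7.39 in vehicle animals. Nfil3, a repressor linked to the clock, had 10.43 and 10.25 in 345 and 346, and 6.62 and 6.65 in 347 and 348, against 6.51 to 7.56 in vehicle animals. Tsc22d3 (GILZ), a classical glucocorticoid target, went the other way, with 8.19, 8.94, 10.15 and 9.38 in tolvaptan animals against 10.26, 10.89, 9.79 and 10.44 in vehicle animals.

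Among 15 immediate early genes tested, 4 were called higher and 0 lower, against 1.66% and 3.74% of all genes, with a median difference of 1.02. Nr4a1 had 7.98 and 6.89 in 345 and 346, and 4.09 and 3.31 in 347 and 348, against 3.74 to 4.07 in vehicle animals. Myc, Ier3 and Klf6 were the other 3, and Myc had 8.88, 7.05, 6.26 and 6.09 in tolvaptan animals against 4.63 to 6.38 in vehicle animals. Fos had 8.70 and 6.70 in 345 and 346, and 4.05 and 4.74 in 347 and 348, against 4.31 to 6.25, and was not called. At least 2-fold above the vehicle range were 11 members in 345 and 7 in 346, with 0 in 347 and in 348, beside 481, 461, 70 and 7 of all 14125 genes. Egr1, an immediate early transcription factor, went the other way, with 7.86, 6.20, 8.30 and 10.11 in tolvaptan animals against 8.91 to 9.55 in vehicle animals, and was the 1 member at least 2-fold below the range in 345 and in 346. Of 15 genes of the Gadd45 and p53 response, 3 were called higher (Gadd45b, Gadd45a and Fas) and 0 lower, against 1.66% and 3.74% of all genes. In 345 and in 346, 7 members lay at least 2-fold above the vehicle range and 0 below it.

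Other stress lists had fewer calls, beside 1.66% of all genes called higher and 3.74% called lower. Of all 14125 genes, 481 in 345 and 461 in 346 lay at least 2-fold above the vehicle range, and 807 and 635 below it. Of 18 hypoxia targets, 1 was called higher (Hilpda) and 1 lower (Ak4), and Vegfa and Car9 were not called. Ak4, an adenylate kinase, had 7.92, 7.28, 9.43 and 9.58 in tolvaptan animals against 9.24 to 10.07 in vehicle animals. In 345 and 346, 4 and 3 hypoxia targets lay at least 2-fold above the vehicle range, and 1 and 1 below it. The mean level of these targets was 6.44, 6.28, 5.61 and 5.46 in tolvaptan animals, against 5.54 to 5.62 in vehicle animals. Of 18 integrated stress response genes, Atf3 was the 1 called, with 7 and 6 members at least 2-fold above the vehicle range in 345 and 346, and 1 and 2 members below it. Chac1, which degrades glutathione under stress, had 9.66 and 9.53 in 345 and 346, and 4.59 and 6.21 in 347 and 348, against 5.83 to 6.31 in vehicle animals, and was not called. Of 21 endoplasmic reticulum chaperones and degradation genes, 0 were called in either direction, and their mean level was 9.05, 8.99, 8.86 and 9.08 in tolvaptan animals against 8.78 to 9.03 in vehicle animals. Of 12 cholesterol synthesis genes 0 were called, yet 5 in 345 and 6 in 346 lay at least 2-fold above the vehicle range and 0 below it, such as Sqle with 9.13, 9.46, 6.78 and 6.70 in tolvaptan animals against 6.83 to 7.38 in vehicle animals. Respiratory chain (24 genes), ribosomal protein (8) and proteasome (21) genes had 0 calls and 0 members at least 2-fold outside the vehicle range in any of the 4 tolvaptan animals.

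**Figure D3:**
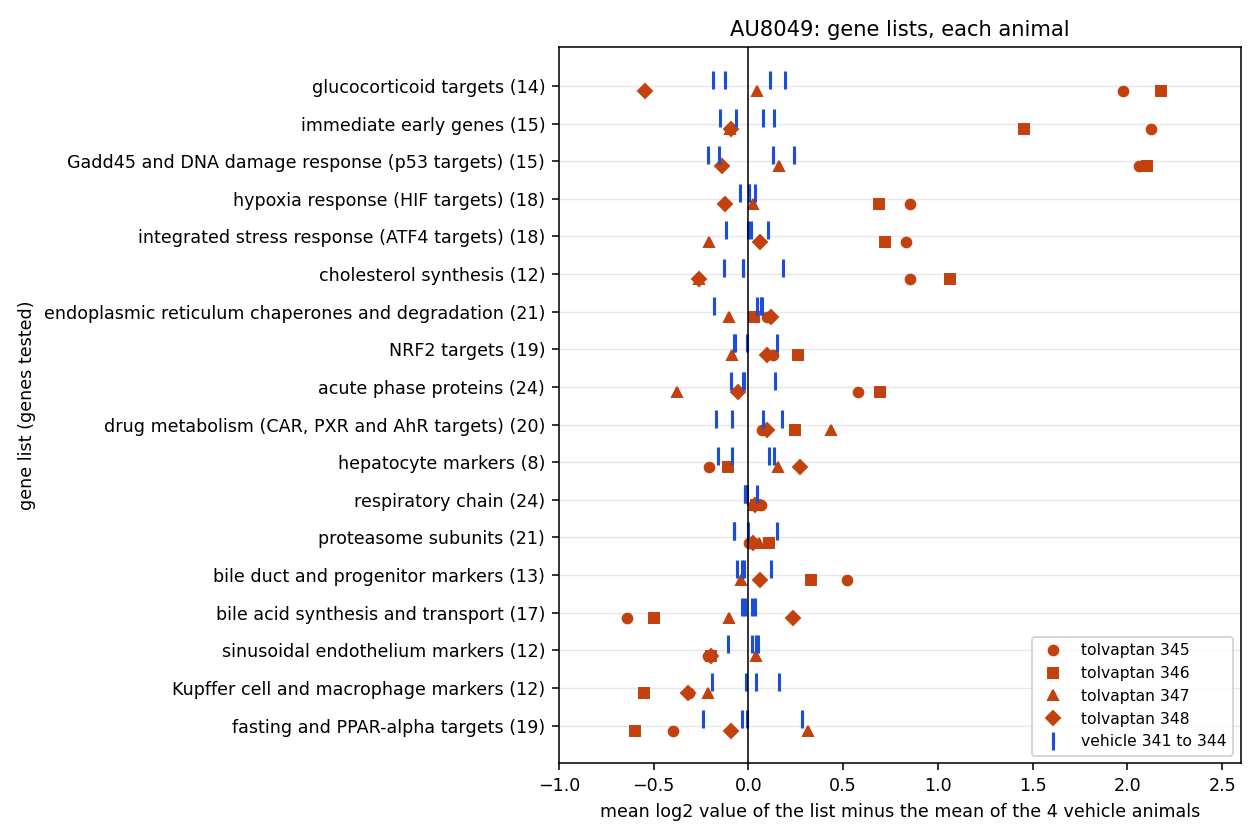
Mean log2 value of 18 gene lists in each AU8049 animal, minus the mean of the 4 vehicle animals, with the number of genes tested in brackets. For glucocorticoid targets, immediate early genes and the Gadd45 and p53 list, 345 and 346 (orange circle and square) lie above the 4 vehicle animals, while 347 and 348 lie near the vehicle animals (blue bars).

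The leading falls were led by Ppp1r3c, a subunit that directs protein phosphatase 1 to glycogen, with 3.47, 6.80, 8.87 and 8.93 in tolvaptan animals against 9.33, 9.36, 9.25 and 9.11 in vehicle animals. All 4 tolvaptan animals lay below all 4 vehicle animals, by little in 347 and 348. Stbd1, which binds glycogen, had 4.53 and 4.59 in 345 and 346, and 6.42 and 7.33 in 347 and 348, against 7.04 to 7.83 in vehicle animals. Foxa3, a transcription factor of hepatocyte identity, was 5.73, 6.09, 9.51 and 9.16 in tolvaptan animals, against 9.77, 9.72, 9.73 and 9.47 in vehicle animals, with 348 just below the vehicle range and 347 inside it. Shmt1, an enzyme of folate metabolism, was 5.35, 5.73, 9.56 and 9.68 in tolvaptan animals, against 9.77, 9.45, 9.56 and 9.88 in vehicle animals. Its other 2 probe sets differed less, with differences of -0.71 and -0.54 in group means against -2.08.

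Nfe2l2, which encodes the antioxidant regulator NRF2, had probe sets that ran in opposite directions. The brighter one, used for the gene, was 3.94, 3.72, 8.21 and 7.96 in tolvaptan animals, against 8.35, 8.02, 8.02 and 8.11 in vehicle animals. The second was 8.85, 8.52, 4.70 and 4.44 in tolvaptan animals, against 4.73, 4.54, 4.59 and 4.87 in vehicle animals. Animals 345 and 346 were thus low on one and high on the other, so no direction is given for the gene. Of 19 NRF2 targets tested, 0 were called, against 5.4% of all genes. Gclc had 9.09, 9.21, 10.12 and 10.79 in tolvaptan animals against 9.75 to 10.89 in vehicle animals, and Hmox1 had 8.71, 8.14, 4.77 and 5.58 against 5.47 to 5.88.

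The same opposition was looked for over all genes after it was seen in Nfe2l2. Of 6381 genes with several probe sets, 9 had 1 probe set at least 2-fold above the vehicle range and another at least 2-fold below it in animal 345, and 8 had this in animal 346. The count was 0 in animal 347 and in animal 348. Asxl1, a chromatin regulator, had 4.35 and 4.36 on one probe set in 345 and 346, and 6.60 and 6.79 in 347 and 348, against 6.74 to 6.91 in vehicle animals. Its other probe set had 6.99 and 6.93 in 345 and 346, and 5.28 and 4.86 in 347 and 348, against 4.70 to 5.18. Trappc13, a subunit of a vesicle tethering complex, had 2.62 and 2.95 on one probe set in 345 and 346, against 4.15 to 4.82 in vehicle animals, and 6.31 and 6.86 on the other, against 3.43 to 4.18. Probe sets of a gene can read different parts of its transcripts, and which parts these read was not analysed here.

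The rest of the 15 leading falls were of mixed kinds. Hspa1b, an inducible heat shock protein, was 4.67, 4.74, 7.98 and 8.18 in tolvaptan animals, against 8.33, 8.64, 8.30 and 7.67 in vehicle animals. Its near-identical copy Hspa1a may share these probes, so the value may belong to both. Sucnr1, the succinate receptor, had 3.84, 3.76, 4.59 and 6.30 in tolvaptan animals against 6.12 to 6.92 in vehicle animals, with 347 also below the vehicle range. Hykk, hydroxylysine kinase, had 4.24 and 5.30 in 345 and 346, and 8.87 and 8.69 in 347 and 348, against 8.24 to 8.996 in vehicle animals. The remaining leading falls were Kctd21, Gm19696, Tnfaip8l1, Chac2 (a glutathione-degrading enzyme), Depdc7, Rassf4 and Trim14, with fitted differences of -2.02 to -1.79. Among other called genes, Nr1i3 (the xenobiotic receptor CAR) was 5.84, 5.77, 9.36 and 8.23 in tolvaptan animals against 8.83 to 9.11 in vehicle animals, and Cyp4a10, a fatty acid hydroxylase and PPAR-alpha target, was 8.91, 9.12, 12.85 and 12.07 against 12.04 to 12.54.

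**Figure D4:**
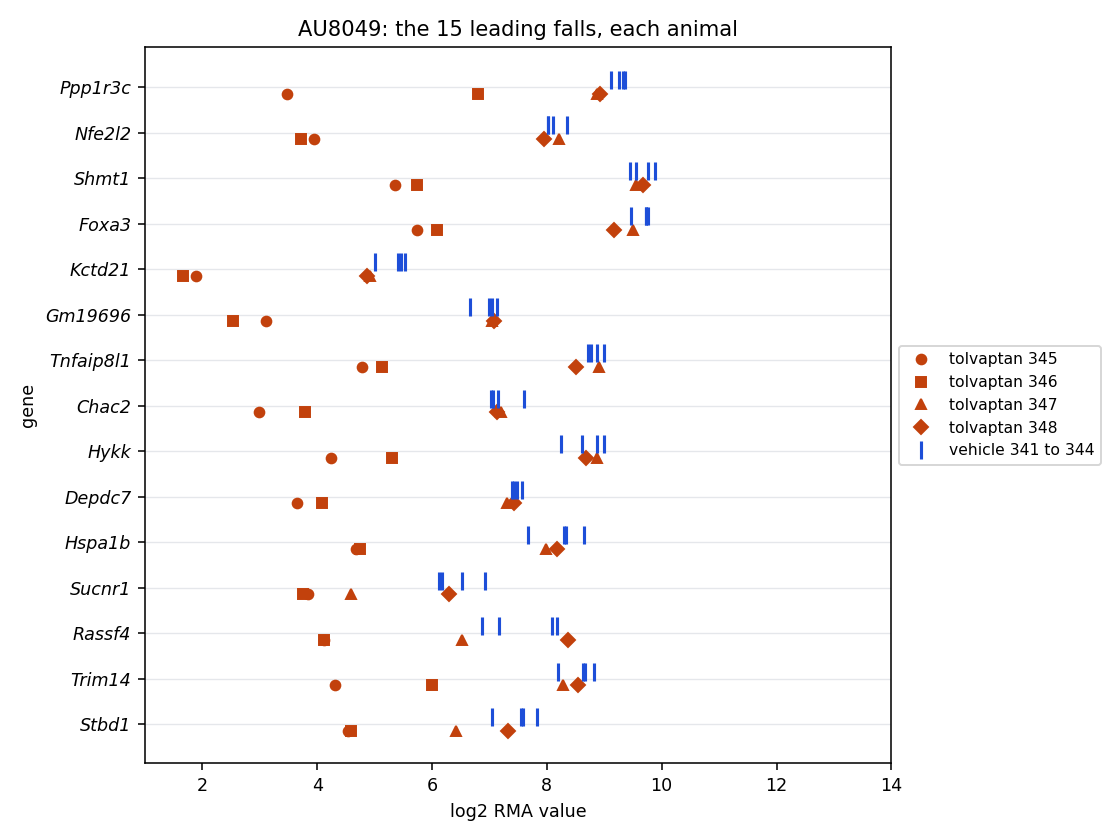
Log2 RMA values of the 15 leading falls in AU8049, with each tolvaptan animal as its own orange symbol and the 4 vehicle animals as blue bars. Animals 345 and 346 stand to the left of the vehicle animals for each gene shown, and Nfe2l2 is drawn from its brighter probe set.

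Hepatocyte and sinusoidal markers were checked because in whole liver fewer cells of a type and less RNA per cell cannot be told apart. Of 8 hepatocyte markers tested, 0 were called, and Alb was 13.64, 13.58, 13.74 and 13.70 in tolvaptan animals against 13.54 to 13.64 in vehicle animals. The mean of these 8 markers was 11.50, 11.60, 11.87 and 11.98 in tolvaptan animals, against 11.55 to 11.84 in vehicle animals. Of 12 sinusoidal endothelium markers, 1 was called higher and 2 lower, against 1.66% and 3.74% of all genes. Lyve1, a hyaluronan receptor, had 6.63, 7.00, 4.40 and 3.84 in tolvaptan animals against 3.84 to 4.50 in vehicle animals. Gpr182 had 4.42, 5.49, 7.04 and 6.56 against 6.81 to 7.26, and Fcgr2b had 7.04, 6.92, 8.49 and 8.71 against 8.44 to 8.73. Of 12 Kupffer cell and macrophage markers, 0 were called, with a median difference of -0.40, and the mean level was 6.08, 5.84, 6.17 and 6.07 in tolvaptan animals against 6.20 to 6.55 in vehicle animals. Of 4 fat cell markers, Fabp4 was the 1 called, higher, against 1.66% of all genes. The mean of these fat cell markers was 7.69, 7.78, 6.18 and 6.40 in tolvaptan animals, against 6.32 to 6.49. Whether attached fat plays a part in these values was not tested. Neutrophil, T and NK cell, B cell, stellate, red cell, pancreas, kidney and adrenal, and muscle markers had 0 calls in either direction.

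Animals 347 and 348 had their own outlying genes, named here after their values were seen. In 347, Sult3a1 was 7.14, against 1.74, 2.03 and 1.71 in the other tolvaptan animals and 1.71 to 2.03 in vehicle animals. Cyp2b9 was 8.52 in 347, against 3.68, 4.39 and 4.29 and 4.33 to 4.98. Hsd3b5 was 6.99 in 347, against 8.57, 8.34 and 10.74 in 345, 346 and 348 and 9.86 to 10.45 in vehicle animals. In mouse liver the first and second are known as female-biased and the third as male-biased, yet Xist was 2.54 to 3.09 over all 8 animals and the Y-linked Eif2s3y was 5.52 in 347, against 5.11 to 5.99 in vehicle animals. Over the other 346 arrays the middle value of Sult3a1 was 1.90 and its 95th percentile 11.81, so levels of this size occurred elsewhere in the series. In 348 a wide gap was seen for Nphp4, a cilium gene, with 2.27, against 5.71, 5.84 and 4.74 in 345 to 347 and 5.57 to 6.14 in vehicle animals. Bcl6, a growth hormone-regulated repressor, was 3.77 in 348, against 7.74, 6.95 and 6.09 in 345 to 347 and 5.36 to 7.75 in vehicle animals.

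The averaged tolvaptan difference in the other 44 strains was fitted without any AU8049 array and can be tested. It had 76 calls (0.538%) among the same 14125 genes, 50 higher and 26 lower (50 and 40 after quantile normalization). Without arrays off their strain it had 35 calls, 17 higher and 18 lower, 29 of them shared with the 76. The 5 leading rises of AU8049 did not pass there. The averaged difference was 0.05 ± 0.14 (SE) for Pdk4, 0.16 ± 0.11 for Gadd45b, 0.06 ± 0.05 for Hilpda, -0.03 ± 0.05 for Sox9 and -0.04 ± 0.04 for Htra1, with limma adjusted p of 0.965, 0.729, 0.776, 0.924 and 0.848. Genes that did rise in the other strains were Derl3, a factor of endoplasmic reticulum-associated degradation (0.998 ± 0.135, adjusted p = 1.43e-08), Saa3, an acute phase protein (0.91 ± 0.12, adjusted p = 1.43e-08), Alas1, the first enzyme of haem synthesis (0.34 ± 0.08, adjusted p = 0.00659), and Agt, angiotensinogen (0.16 ± 0.03, adjusted p = 4.62e-05). All 4 also passed without arrays off their strain. In AU8049, Derl3 was 6.51, 5.30, 7.76 and 6.79 in tolvaptan animals against 5.04 to 6.30 in vehicle animals, so 345, 347 and 348 were above the vehicle range and 346 was inside it. Saa3 was 6.85, 7.03, 4.82 and 5.87 against 5.33 to 6.03, and Alas1 was 11.64, 11.79, 10.45 and 10.95 against 9.74 to 11.06. Agt was 12.95, 12.86, 11.98 and 11.46 against 11.38 to 11.78. Of the 76 genes called in the other strains, 47 had the same sign in AU8049 (61.8%, against 51.3% over all genes). Of the 76, 4 were called in AU8049, where 5.4% of all genes were called, so these 4 are close to that share.

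The V1a receptor gene and genes of drug metabolism and bile export were compared next. Avpr1a, the receptor of hepatocytes and not the V2 receptor that tolvaptan blocks, had a fitted difference of -0.63 on its brighter probe set and 0.06 between group means on its second, with 6.64, 5.79, 6.34 and 6.15 in tolvaptan animals against 6.24 to 7.43 on the first. Cyp3a11, a target of the receptor PXR, was 11.43, 11.86, 12.78 and 12.95 in tolvaptan animals, against 11.74 to 12.74 in vehicle animals. Cyp2b10, a target of CAR, was 4.55, 6.26, 4.24 and 3.13 in tolvaptan animals, against 2.27 to 3.76, and neither was called. The bile salt export pump Abcb11 was 9.04, 9.12, 8.94 and 9.46 in tolvaptan animals, against 8.60 to 9.26. Its list did not follow it. Of 17 genes of bile acid synthesis and transport, 0 were called higher and 1 lower (Nr1h4), against 1.66% and 3.74% of all genes. At least 2-fold below the vehicle range were 6 members in 345 and 3 in 346, beside 807 and 635 of all 14125 genes, and 1 and 0 lay above it. The list mean was 8.58, 8.72, 9.12 and 9.46 in tolvaptan animals, against 9.187 to 9.255.

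One tolvaptan animal of another strain had a profile that correlated with those of 345 and 346. For each tolvaptan animal the difference from the vehicle mean of its own strain was taken for all 14125 genes, and the AU8049 animals were compared with 171 tolvaptan animals of the other 44 strains, which share no array with them. Animal 477 of strain OR3393 had a Pearson r of 0.787 with 345 and 0.789 with 346, and 0.02 and -0.03 with 347 and 348. Next came animal 368 of OR5119 (0.468 and 0.513, with 1 of its strain's vehicle arrays off its strain), and the median over the 171 animals was -0.01 with both. Animals 477 and 368 correlated with the other arrays of their own strains at 0.563 and 0.576 over the strain-informative probe sets, above the limit of 0.5 but below the 0.77 of 345 and 346. The gene Plpbp, low in the rest of OR3393, was 7.57 in 477, against 1.94 to 2.94 in the other 3 tolvaptan animals of the strain and 1.91 to 2.31 in its vehicle animals. Whether a difference of strain adds to the profile of 477 was not tested. These are correlations across genes, which are not independent replicates, and the comparison was chosen after the values were seen.

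**Figure D5:**
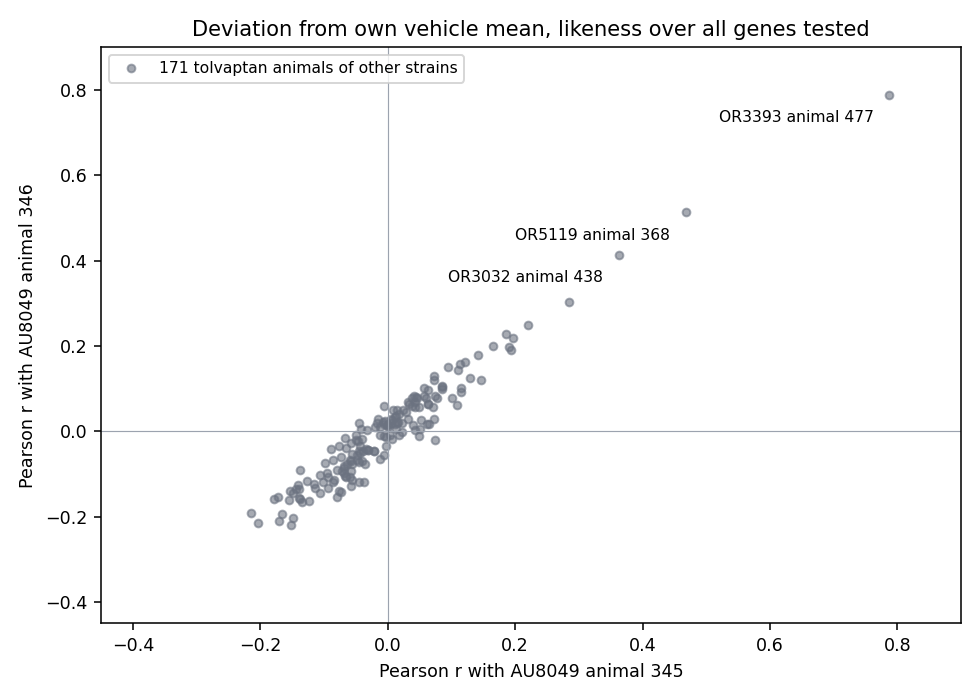
Pearson r across 14125 genes between each of 171 tolvaptan animals of other strains and AU8049 animal 345 (horizontal axis) or 346 (vertical axis), each taken as its difference from the vehicle mean of its own strain. Animal 477 of OR3393 stands alone at 0.787 and 0.789, and most animals lie near 0.

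Leading genes of AU8049 stood out in animal 477 too. Gadd45b was 11.33 in 477, against 5.77 to 6.34 in the other 3 tolvaptan animals of OR3393 and 3.95 to 6.40 in its 4 vehicle animals. Sox9 was 8.06 in 477, against 2.68 to 3.33 and 3.07 to 3.29, and Htra1 was 7.57, against 3.62 to 4.02 and 3.59 to 3.75. Foxa3 was 6.68 in 477, against 8.56 to 8.64 and 9.40 to 9.61. Animal 368 of OR5119 shared many of the leading rises, but not Gadd45b, Sox9 or Htra1 at this size. Its Gadd45b was 5.72, Sox9 3.26 and Htra1 3.76, against 4.96 to 6.30, 2.18 to 3.15 and 3.31 to 4.50 in OR5119 vehicle animals. Its Pdk4 was 10.75 and Hilpda 8.19, against 3.78 to 6.08 and 4.46 to 4.71. Gadd45a was 7.34, Sgk1 9.37 and Thbd 6.47 in 368, against 3.99 to 5.20, 7.20 to 7.40 and 2.96 to 3.79. Grb10, Klf6, Retreg1, Kcnk1, Crybb3, Atf3 and Ifrd1 in 368 also lay above the OR5119 vehicle animals. The leading fall Ppp1r3c was 2.71 in 368, against 7.73 to 8.63 in OR5119 vehicle animals. In 477 it was 8.42, against 9.41 to 10.02 in OR3393 vehicle animals. The probe sets of Nfe2l2 were again opposed, with 3.92 and 8.19 in 477, against 8.40 to 8.91 and 4.30 to 5.11 in the other tolvaptan animals and 8.18 to 8.34 and 4.76 to 5.43 in vehicle animals of OR3393. Counting arrays that reached the lower of 345 and 346 for a rise, 0 of 171 other tolvaptan and 0 of 175 other vehicle arrays did so for Pdk4, Gadd45b, Hilpda, Htra1, Grb10 and Thbd. For Sox9, Gadd45a, Klf6, Sgk1 and Atf3 it was 1 tolvaptan and 0 vehicle arrays. For the other 4 leading rises it was 3 tolvaptan and 0 vehicle arrays for Retreg1, 2 and 0 for Ifrd1, 0 and 2 for Crybb3, and 12 and 6 for Kcnk1. Among the leading falls, arrays at or under the higher of 345 and 346 were 47 tolvaptan and 34 vehicle for Sucnr1. The counts were 20 and 22 for Rassf4, 10 and 5 for Gm19696, 3 and 0 for Ppp1r3c, and 2 and 1 for Trim14. They were 1 and 0 for Nfe2l2 (brighter probe set), Tnfaip8l1 and Hspa1b. For Shmt1, Foxa3, Kctd21, Chac2, Hykk, Depdc7 and Stbd1 they were 0 and 0.

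The vehicle-treated liver of the strain was set beside the other strains' vehicle livers, a comparison that shares its 4 vehicle arrays with the first. It had 854 calls (6.05%), 490 higher (3.47%) and 364 lower (2.58%), and 510 to 548 without 1 of the 4 vehicle animals. The SE and adjusted p of this comparison come from the spread between animals within groups, not from the spread between strains. A call therefore does not place AU8049 outside the range of the other strains. Plpbp, a vitamin B6-binding protein, was lower by far, with 2.15, 2.12, 2.36 and 2.26 in AU8049 vehicle animals against a median of 8.76 over the other 175 vehicle arrays (difference -5.84 ± 0.44, limma adjusted p = 1.80e-27). This level was not confined to AU8049, since vehicle animals of OR3393 had 1.91 to 2.31. Wfdc21 was 5.71, 5.72, 5.35 and 6.78, against a median of 12.08 (-5.59 ± 0.45, adjusted p = 1.44e-24). B4galnt1, a ganglioside synthase, and Sult5a1, a sulfotransferase, differed by -4.92 and -4.39. Of the drug metabolism and acute phase genes given above, Cyp2b10 was lower by 4.20 in AU8049 vehicle livers (-4.20, adjusted p = 3.93e-05) and Saa3 by 2.08 (-2.08, adjusted p = 0.0136). The leading genes higher in AU8049 were Gdpd3, a lysophospholipase D (4.005 ± 0.61, adjusted p = 5.39e-08), Obp2a (3.75), Dct (3.50) and the class I histocompatibility gene H2-Bl (3.12), whose family has near-identical members. Of the 15 leading rises under tolvaptan, Retreg1 was the 1 called in this comparison, lower in AU8049 vehicle livers (-1.50 ± 0.40, adjusted p = 0.00734). Of the 15 leading falls, Sucnr1 (1.65 ± 0.34, adjusted p = 0.000199) and Rassf4 (2.57 ± 0.33, adjusted p = 1.07e-10) were called, both higher in AU8049 vehicle livers. The adjusted p was 0.787 for Pdk4, 0.139 for Gadd45b, 0.870 for Hilpda, 0.252 for Sox9 and 0.310 for Htra1.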

How the data were processed

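Liver RNA of 354 mice was measured on 1-colour Affymetrix arrays, 1 array per animal, of which 8 are described here. Per the submitters' processing notes, RMA in the Affymetrix Expression Console made the deposited log2 values. Versions are not given in the sources used here. Of 42597 probe sets, 27691 carried 1 gene symbol and 27494 of these matched RefSeq. Each gene was represented by its probe set of highest mean, and a gene was kept if 4 or more arrays had it above their median, which left 14125. Arrays have no read depth, so their number limits the precision. limma 3.58.1 in R 4.3.3 fitted 1 mean per strain and treatment plus 6 scans, with Benjamini-Hochberg adjustment over all genes at 0.05, two-sided. The steps were tested on simulated data. Named genes were the 15 leading rises and 15 leading falls called at least 2 log2 units above the typical array median, up to 4 called members of each of 42 gene lists (else 1 member), the 4 leading vehicle differences each way and 13 fixed genes. The strain, members and lists were chosen with earlier results of these data known. Alternatives changed the scan term, probe set, filter, scaling, prior and arrays.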

Additional observations from a re-analysis of the deposited data

Results flagged for a closer look

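A gap test for single values (Dixon's, 95% level) was run on 174 groups of 4 animals, the 87 named genes in each treatment group, and picked out 6 values. Chance alone picks out about 1 in 20 groups. In the tolvaptan group these were Nkg7 in animal 348 (2.51, against 2.04, 2.06 and 2.11 in 345, 346 and 347) and H2-Bl in animal 347 (7.90, against 8.50, 8.51 and 8.50 in 345, 346 and 348). In the vehicle group they were Grb10 in animal 343 (4.66, against 4.75, 4.75 and 4.74), Klf6 in 342 (3.20, against 4.34, 4.21 and 4.27), Retreg1 in 342 (6.78, against 7.45, 7.40 and 7.48) and Hmox1 in 343 (5.88, against 5.47, 5.47 and 5.48). The test looks for 1 animal away from the other 3, so it cannot pick out 345 and 346 together.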

How the results depend on the processing

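For AU8049 tolvaptan minus vehicle, 763 genes were called. Leaving out 1 animal gave 23 to 1652 calls. The count was 0 on the 8 AU8049 arrays alone (limma, 1492 genes at an unadjusted p under 0.05). These are few arrays to estimate the spread, and the tolvaptan animals among them differed widely. The median SD over tolvaptan animals was 1.088 for genes called higher and 0.823 for those called lower. Over vehicle animals it was 0.232 and 0.175. For all genes tested it was 0.281 over tolvaptan animals and 0.208 over vehicle animals. The part of each in the count of 0 was not tested. The count was 1796 in scan 3 only and 1345 without the scan 1 animals 348 and 344, the last chosen after seeing the data. For AU8049 vehicle against the other strains' vehicle, 854 genes were called, with 510 to 548 when 1 animal was left out and 507 without the scan 1 animals. For the other 44 strains, 76 genes were called, and 35 once off-strain arrays were left out, 29 of them shared. The other settings stayed within 1.5 times of each count. The calls higher under tolvaptan in those 44 strains made up 65.8% of calls, against 55.6% after quantile normalization and 48.6% without off-strain arrays. Of the 50 named genes called in AU8049, 0 changed direction in 19 other settings. They were mostly named for their difference, and each setting kept animal 345 or 346 or both, so the 0 is not a test of their stability. The call was lost for 50 of them on the AU8049 arrays alone, for 43 without 345 and for 38 without 346. A call was gained for 5 other named genes without 347 and for 4 without 348. With 4 animals a group and 2 far from the others, the fitted means describe no single animal. No paired analysis was possible because the labels give each animal its own number.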
